A study of Mus musculus with 9 samples.

Results

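Glb1l3, Dleu7, Slc29a1, Nnat, Slc25a25, Pdzph1 and Taf4b are 7 genes that gave lower signals in retinas of mice kept under white light-emitting diodes (LEDs) than in control retinas. They were picked for that difference from results of the same 9 arrays, so it is given here as a description, with no test. All 11 probe sets carrying the symbol of 1 of these genes alone were read. In all, 34945 probe sets had 1 symbol, and they named 18193 genes, of which 12765 passed a filter on dim signals. A probe set is a group of short probes for 1 stretch of transcript. The value of a probe set is the log2 of its signal, so that a difference of 1 is a doubling, and the brightest probe set on average stood for its gene. All 7 genes passed the filter, set at 5.91, and 9 of their 11 probe sets did. Of the genes, 5 had 1 probe set, and Slc25a25 and Taf4b had 3 each.

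The RNA came from the neurosensory retina of 10-week-old females of the albino strain BALB/c (Babl/c in the labels' spelling). Mice spent 14 days with 12 h on and 12 h off per day, either in a dark environment (control; no illuminance is given) or at 1000 lx under LEDs whose correlated colour temperature was 2954K, a warm white, or 7378K, a cold white. Each group had 3 Affymetrix mouse genome arrays, each from a pool of 3 right-eye retinas, and arrays are named here by group and replicate number. In whole retina, fewer cells of a type and less RNA per cell cannot be told apart.

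The 7 genes belong to no single pathway. Transport and metabolism account for Slc29a1, Slc25a25 and Glb1l3: Slc29a1 is the equilibrative nucleoside transporter ENT1, which carries adenosine and other nucleosides across the plasma membrane, Slc25a25 is a calcium-regulated carrier that exchanges ATP-magnesium for phosphate across the inner mitochondrial membrane, and Glb1l3 is related by sequence to the lysosomal beta-galactosidase. Nnat encodes neuronatin, a small membrane protein of the endoplasmic reticulum that is expressed from the paternal allele. Taf4b is a variant subunit of TFIID, the general transcription factor that recognises core promoters, and is best known from the gonads. Pdzph1 is named for its PDZ and pleckstrin homology domains, and Dleu7 for a chromosomal region often lost in lymphocytic leukaemia.

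Promoter sequences were at hand for 6 of the genes, with 15 annotated transcription starts, from RefSeq on mouse genome build GRCm38.p6. They are shown because the genes were chosen for a common direction. Pdzph1 and Dleu7 mark the ends of the range in base composition among the genes with 1 start. Over 32851 promoters the 250 bases before the start had a median GC content of 52.4%, with quartiles of 45.2% and 61.2%. The GC content was 33.6% for Pdzph1, 48.0% for Glb1l3, 54.8% for Nnat and 63.2% for Dleu7. Both sequences are written 5′ to 3′ on the gene's strand, which is the minus strand, and the capitals mark a CCAAT motif.
Pdzph1, chr17:58991376-58991625: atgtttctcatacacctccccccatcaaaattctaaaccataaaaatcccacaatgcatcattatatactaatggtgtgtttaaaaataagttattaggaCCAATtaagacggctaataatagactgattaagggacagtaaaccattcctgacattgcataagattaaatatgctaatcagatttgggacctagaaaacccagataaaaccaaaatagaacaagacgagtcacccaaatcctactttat
Dleu7, chr14:62292980-62293229: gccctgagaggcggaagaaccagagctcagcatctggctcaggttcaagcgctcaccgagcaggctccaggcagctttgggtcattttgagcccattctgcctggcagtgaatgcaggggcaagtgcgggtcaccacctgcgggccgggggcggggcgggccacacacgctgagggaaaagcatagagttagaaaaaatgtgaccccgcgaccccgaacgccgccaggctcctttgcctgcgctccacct
Pdzph1 was thus below the lowest quartile and Dleu7 above the highest.

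Both strands were searched for 6 short motifs. Slc29a1 held 8 of the 15 starts and Slc25a25 held 3, so the starts do not stand for separate genes. TGACG, the core of the cyclic AMP response element, was present at 17.8% of all promoters and at 2 of the 15 starts, in 2 of the 6 genes. CCAAT was present at 33.8% of all promoters and at 5 of the 15 starts, in 3 of the 6 genes. CACGTG, the E-box, was found at 6.02% of all promoters and at 1 start. TAATCC, a site bound by photoreceptor homeodomain factors, was found at 6.25% and at 1 start. AGGTCA, a nuclear receptor core, was found at 14% and at 2 starts, both of Slc29a1. TGANTCA, the AP-1 motif, was found at 6.75% of all promoters and at 0 of the 15 starts. A match describes the letters in these windows and is not evidence of binding. Of the 6 genes, Glb1l3, Dleu7 and Nnat held no match. The stretches printed here carry the TGACG match of each of the 2 solute carriers and examples of the other motifs. They lie on the minus strand, read 5′ to 3′, with the motif in capitals.
Slc25a25, the third start, TGACG on both strands, chr2:32424199-32424228: ctctgcaagcagTGACGTCAgtcctgatct
Slc25a25, first start, CCAAT, chr2:32451599-32451628: acccagcttcagCCAATccccggctccctc
Slc29a1, seventh start, TGACG, chr17:45593693-45593722: ggtgaccagctgTGACGcctgtctgggtgg
Slc29a1, sixth start, CACGTG, chr17:45595304-45595333: gagcagcgccagCACGTGgcgcgcatgggc
Slc29a1, first start, TAATCC on the opposite strand, chr17:45599700-45599729: gtgtggacaggtGGATTAaaagcagtccca
In Slc25a25 the matches on the 2 strands overlap and join into the 8 letters in capitals. The promoter of Taf4b was not analysed here.

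Glb1l3 stood furthest below control under 7378K among the 7 genes. The control arrays gave 10.87, 10.77 and 11.01, the 2954K arrays 8.97, 10.16 and 9.31, and the 7378K arrays 8.79, 8.22 and 8.49. No LED array reached a control array, and every 7378K array was below every 2954K array. Group means were 10.88 ± 0.12, 9.48 ± 0.61 and 8.50 ± 0.28 (SD, n = 3 pools). The 2954K mean was 2.64-fold below the control mean and the 7378K mean 5.22-fold below it.

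Slc29a1, the nucleoside transporter, read 8.83, 8.58 and 8.26 in the controls, 6.95, 7.96 and 7.32 under 2954K, and 6.46, 7.28 and 7.54 under 7378K. Both LED groups were below the controls without overlap, and they overlapped each other. The gap between the lowest control and the highest LED array was 0.30 on the log2 scale, the smallest among the main probe sets of the 7 genes. Means were 8.56 ± 0.28, 7.41 ± 0.51 and 7.09 ± 0.57 (SD, n = 3), or 2.21-fold lower under 2954K and 2.76-fold lower under 7378K than in controls.

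Slc25a25, the mitochondrial carrier, read 9.91, 9.78 and 9.98 in the controls on its main probe set (1424735_at), 7.52, 9.30 and 8.76 under 2954K, and 8.05, 8.22 and 8.51 under 7378K. The 2954K arrays spread widely, from the lowest of all 9 values in replicate 1 to the highest LED value in replicate 2. Means were 9.89 ± 0.10, 8.53 ± 0.91 and 8.26 ± 0.23 (SD, n = 3). The 2954K mean was 2.57-fold and the 7378K mean 3.09-fold below the control mean. Without 2954K replicate 1 the 2954K difference was -0.86 in place of -1.36 on the log2 scale.

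On the other probe sets of Slc25a25 the lowest control and the highest LED array lay closer together than on the main probe set. On 1447856_x_at, whose suffix marks probes that may also match other transcripts, the controls read 7.73, 7.80 and 7.77, the 2954K arrays 7.44, 6.93 and 6.65, and the 7378K arrays 6.83, 7.70 and 7.54. Control and LED arrays did not overlap, although the gap between the lowest control and the highest LED array was 0.03. The LED means on it were 1.69-fold (2954K) and 1.33-fold (7378K) below control. On 1454284_at, which failed the filter, controls read 6.73, 6.80 and 6.60, 2954K arrays 4.59, 6.29 and 3.61, and 7378K arrays 5.58, 4.20 and 3.75. All LED arrays were again the lower ones, and both LED means, 4.83 ± 1.36 and 4.51 ± 0.95 (SD, n = 3), lay below the filter value. The LED means on 1454284_at were 3.68-fold (2954K) and 4.59-fold (7378K) below control, larger folds than on the main probe set. The correlation with the main probe set over the 9 arrays, group differences included, was 0.36 for 1447856_x_at and 0.73 for 1454284_at. With group means removed it was -0.38 and 0.21.

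Nnat, which encodes neuronatin, read 8.64, 8.93 and 9.26 in the controls, 7.17, 7.73 and 7.40 under 2954K, and 8.23, 7.45 and 6.60 under 7378K. Every LED array was below every control, and the 7378K arrays spanned the whole 2954K range. Means were 8.94 ± 0.31, 7.44 ± 0.28 and 7.43 ± 0.82 (SD, n = 3), which made the LED means 2.84-fold (2954K) and 2.86-fold (7378K) lower than control.

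Dleu7 read 8.62, 8.81 and 8.36 in the controls, 7.31, 7.53 and 6.66 under 2954K, and 6.53, 6.81 and 7.02 under 7378K. The 0.83 between its lowest control and its highest LED array was the widest such gap of the 7 genes. Means were 8.60 ± 0.22, 7.17 ± 0.45 and 6.79 ± 0.25 (SD, n = 3), so that the LED means were 2.69-fold (2954K) and 3.5-fold (7378K) below control.

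Pdzph1 was the tightest of the genes within groups. It read 12.06, 11.96 and 12.00 in the controls, 10.88, 11.21 and 11.21 under 2954K, and 11.01, 11.08 and 10.94 under 7378K. The LED arrays lay within 0.33 of each other, and the lowest control was 0.75 above the highest of them. Means were 12.01 ± 0.05, 11.10 ± 0.19 and 11.01 ± 0.07 (SD, n = 3). The LED means were 1.87-fold (2954K) and 1.99-fold (7378K) below control, the smallest folds among the 7 main probe sets.

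Taf4b, the TFIID subunit, read 10.76, 10.97 and 10.68 in the controls on its main probe set (1435303_at), 9.39, 10.29 and 9.12 under 2954K, and 9.64, 9.62 and 9.89 under 7378K. It was the one gene whose 7378K mean was above its 2954K mean, at 9.72 ± 0.15 against 9.60 ± 0.61, beside 10.80 ± 0.15 in the controls (SD, n = 3). The LED means were 2.3-fold (2954K) and 2.12-fold (7378K) below control.

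A second probe set of Taf4b, 1435302_at, read 9.98, 9.90 and 9.96 in the controls, 9.33, 9.32 and 9.51 under 2954K, and 9.35, 9.78 and 9.38 under 7378K. The LED arrays were again all below the controls, with folds of 1.47 (2954K) and 1.36 (7378K). The third, 1431193_at, had group means below the filter value in every group and read 4.75, 3.33 and 4.88 in the controls, 6.02, 4.01 and 1.65 under 2954K, and 0.73, 4.58 and 1.10 under 7378K. These values overlapped and gave no order of the groups. Against the main probe set of Taf4b, 1435302_at had a correlation over the 9 arrays of 0.68 and 1431193_at of 0.28, group differences included. With group means removed these were -0.40 and 0.03.

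**Figure D1:**
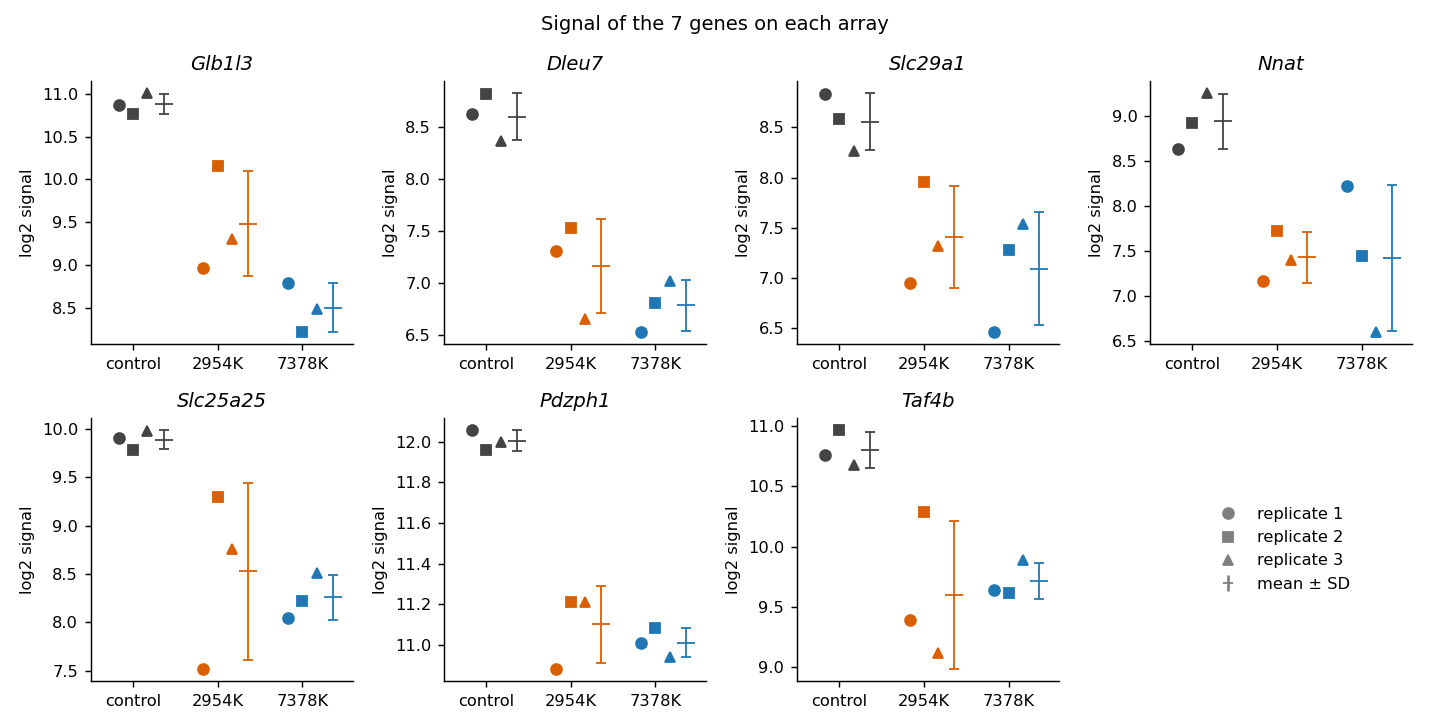
Log2 signal (vertical axes, own scale per panel) of the main probe set of each gene on the 9 arrays, by group, with the group mean and SD (n = 3 pools) beside the points. In every panel the 3 control arrays sit above all 6 LED arrays, by 0.30 (Slc29a1) to 0.83 (Dleu7) at the nearest pair.

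**Figure D2:**
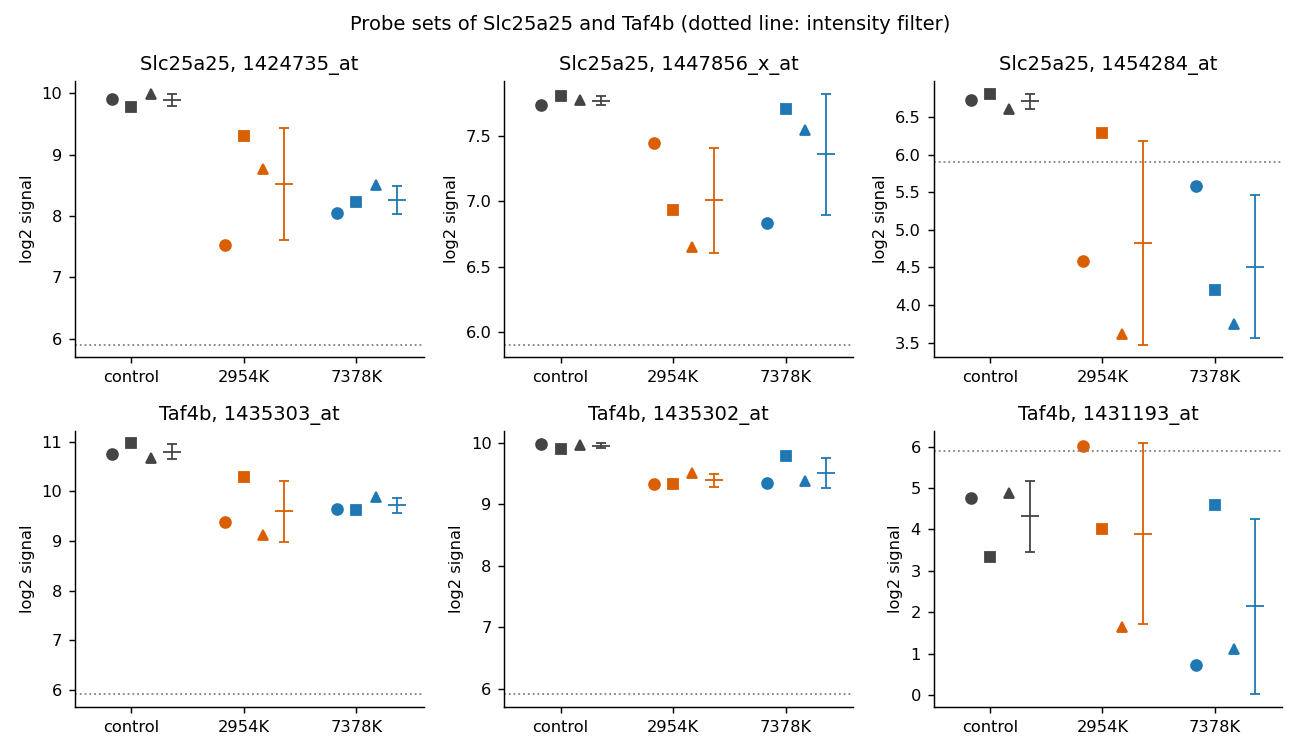
Log2 signal of the 3 probe sets each of Slc25a25 and Taf4b on the 9 arrays, with group means and SD (n = 3 pools); the dotted line is the filter value of 5.91. Controls are above all LED arrays on 5 of these 6 probe sets, by as little as 0.03 on 1447856_x_at, and the groups overlap on 1431193_at.

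Of the 11 probe sets, 10 were lower in both LED groups without overlap. Over all 12765 genes, 7.53% were lower under 2954K without overlap, 14.8% under 7378K and 4.68% under both. The 7 genes stood at 7 of 7 in both, by the way they were chosen, and nothing is read from that count. The median difference of the 7 genes on the log2 scale was -1.36 under 2954K and -1.52 under 7378K, beside 0.01 and 0.04 over all genes.

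The contrast of 7378K with 2954K was not used to choose the genes, although it shares the LED arrays with those that were, and it asks whether the colour temperature of the light made a difference. By limma across all 12765 genes, 0 genes (0%) passed an adjusted p of 0.05 and 519 (4.07%) had an unadjusted p under 0.05. None of the 7 genes passed. Glb1l3 had the largest difference, -0.98 (95% confidence interval -1.53 to -0.44, unadjusted p = 0.002, adjusted p = 0.98), and it was lower in 3 of 3 7378K arrays than in any 2954K array, as were 3.28% of all genes. Across the alternative settings its adjusted p ranged from 0.055, without 2954K replicate 1, to 1. The difference ranged from -1.23, also without 2954K replicate 1, to -0.59, with the dap covariate described below.

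For Dleu7 the 7378K minus 2954K difference was -0.38 (95% interval -0.95 to 0.20), for Slc29a1 -0.32 (-1.02 to 0.38) and for Slc25a25 -0.27 (-1.0 to 0.47). For Nnat it was -0.01, and the interval of -0.76 to 0.75 leaves room for a change of either sign. Pdzph1 had the narrowest interval, -0.32 to 0.14 around -0.09, and Taf4b was at 0.12 (-0.40 to 0.63). The LED arrays overlapped in these 6 genes, whose adjusted p in limma was 0.98 or 1. The median of the 7 differences was -0.27, beside 0.03 over all genes. Fitted on their own, 1447856_x_at of Slc25a25 was at 0.35 (-0.29 to 0.99), opposite in sign to the main probe set, and 1435302_at of Taf4b at 0.12 (-0.19 to 0.42).

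**Figure D3:**
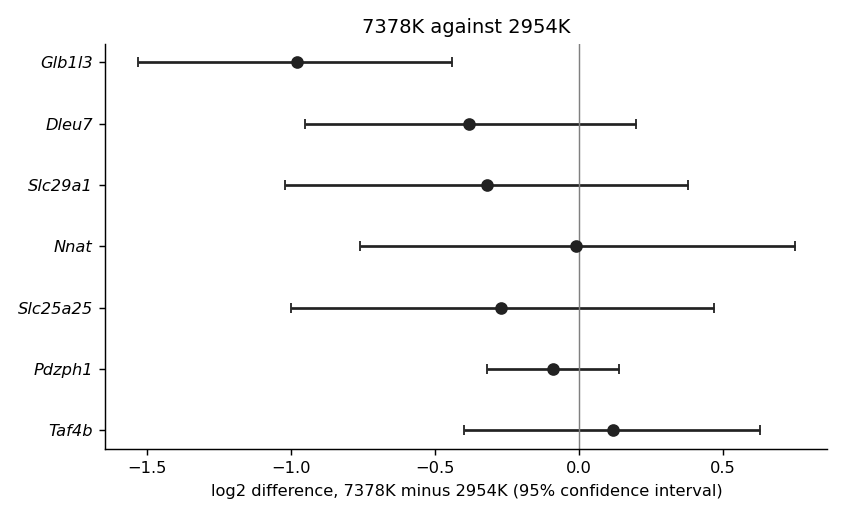
Log2 difference of 7378K minus 2954K (horizontal axis) for the main probe set of each gene, with the 95% confidence interval from the limma fit. The interval of Glb1l3, -1.53 to -0.44, lies below 0, and the intervals of the other 6 genes span 0.

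The labelling reaction starts at the 3′ end of a transcript, so the 3′ minus 5′ difference between probe sets of 1 transcript rises as the copies become shorter. Averaged over the Gapdh and beta-actin control probe sets, this log2 difference was 0.33, 0.20 and 0.42 on the control arrays, 2.78, 0.21 and 1.05 under 2954K, and 1.80, 1.67 and 1.55 under 7378K. The dap control, a bacterial transcript added to the sample, gave 1.45, 1.08 and 1.72 in the controls, 2.88, 1.12 and 2.05 under 2954K, and 2.72, 2.76 and 2.66 under 7378K. By both measures 5 of the 6 LED arrays were above every control, and 2954K replicate 2 lay within the control range.

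The 7 genes were chosen for low LED signals, 2954K replicate 2 included, so its count of genes below control is not a test. On this array all 7 were below every control array, as were 29.2% of all genes. Its distance from the control mean was -1.21 for Nnat, -1.07 for Dleu7, -0.80 for Pdzph1, -0.73 for Glb1l3, -0.60 for Slc29a1, -0.59 for Slc25a25 and -0.51 for Taf4b. It was also the highest of the 3 2954K arrays in 6 of the 7 genes, the exception being Pdzph1, beside 32% of all genes and 60.5% of the 597 genes lower in both LED groups without overlap. Replicate 1, which had the largest 3′ minus 5′ difference, was the lowest 2954K array in 5 genes, and replicate 3 in Dleu7 and Taf4b.

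**Figure D4:**
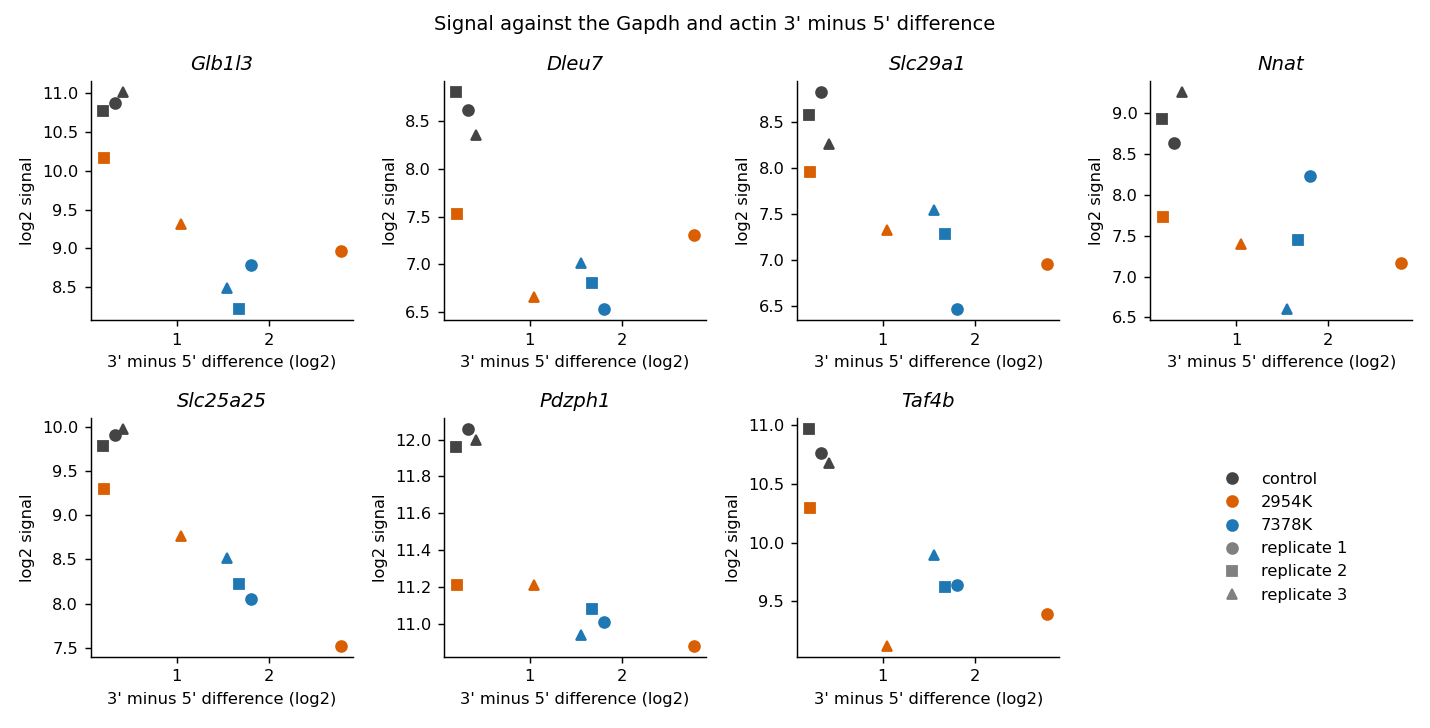
Log2 signal of the main probe set of each gene (vertical axes, own scale per panel) against the Gapdh and beta-actin 3′ minus 5′ log2 difference (horizontal axes) on the 9 arrays, coloured by group, with shapes for replicate numbers. The 2954K array at 0.21 sits beside the controls on the horizontal axis and below them on the vertical axis in all 7 panels. The genes were chosen for low LED signals with this array included.

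Slopes of signal on the 3′ minus 5′ difference within groups do not use the differences between group means. By limma with 1 mean per group, 7.19% of all genes passed an adjusted p of 0.05 for the Gapdh and beta-actin measure and 7.26% for dap, and 1 of the 7 genes, Slc25a25, passed in each. Its slope was -0.69 log2 units per unit of the Gapdh and beta-actin difference (95% interval -0.89 to -0.49, adjusted p = 0.0038 in limma) and -0.85 on dap (-1.27 to -0.43, adjusted p = 0.025). The slope missed the threshold without 2954K replicate 1, at -0.62 (adjusted p = 0.23 in limma) and -0.31 on dap (0.51), and on dap also without 2954K replicate 2, at -0.83 (0.35). The dap slope also missed the threshold with replicate number as a block in the fit. That fit called far fewer slopes over all genes, as the closing paragraph gives. Over all alternatives the adjusted p for Slc25a25 ranged from 0.00097 to 0.23 on the first measure and from 0.013 to 0.51 on dap.

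Glb1l3 had slopes of -0.39 (adjusted p = 0.068 in limma) and -0.56 on dap (0.063), and Taf4b of -0.29 (0.22) and -0.53 (0.062). Slc29a1 had slopes of -0.41 (0.21) and -0.57 (0.21), Pdzph1 of -0.13 (0.16) and -0.15 (0.3), Nnat of -0.13 (0.8) and -0.20 (0.78), and Dleu7 of -0.05 (0.91) and -0.21 (0.66). All 7 slopes were below 0 on both measures, beside 45.2% and 44.9% of all genes, and their medians were -0.29 and -0.53, beside 0.02 and 0.03. The 2954K group supplied 98.3% of the within-group variation in the Gapdh and beta-actin measure and 87.9% of that in dap, so the slopes rest mainly on its 3 arrays. Leaving out 2954K replicate 1 or 2 changed the sign of the Gapdh and beta-actin slope for Dleu7, Nnat, Pdzph1 and Taf4b. The share over all genes is also not a matched one. Replicate 2 was the highest 2954K array in 60.5% of genes lower in both LED groups without overlap, against 32% of all genes. The shared sign of the 7 slopes is thus a description.

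With either 3′ minus 5′ measure as a term in the fit, the LED minus control differences of all 7 genes kept their sign and became smaller. For 2954K on the Gapdh and beta-actin measure they were -1.38 for Dleu7, -1.37 for Nnat, -1.0 for Glb1l3, -0.90 for Taf4b, -0.77 for Pdzph1, -0.73 for Slc29a1 and -0.65 for Slc25a25. For 7378K they were -1.85 for Glb1l3, -1.74 for Dleu7, -1.34 for Nnat, -0.91 for Slc29a1, -0.82 for Pdzph1 and -0.69 for both Slc25a25 and Taf4b. On dap the 7378K values were closer to 0 in all 7 genes, down to -0.53 for Slc25a25 and -0.40 for Taf4b, from -1.63 and -1.08 without a covariate. Dleu7, Nnat and Pdzph1 were the least moved, at -1.53, -1.26 and -0.81 under 7378K on dap.

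**Figure D5:**
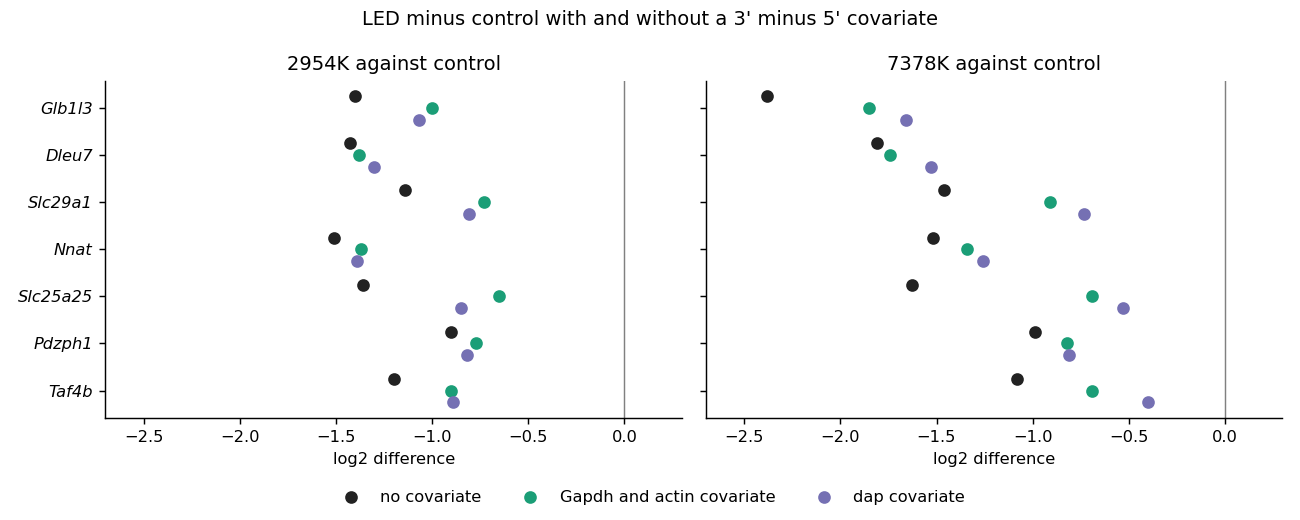
LED minus control log2 differences of each gene without a covariate and with either 3′ minus 5′ difference as a covariate, for 2954K and 7378K. All values are below 0; Slc25a25 moved from -1.63 to -0.53 under 7378K with dap, and Dleu7 from -1.81 to -1.53.

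Markers of cell types moved alongside the groups as well, and their part in the values of the 7 genes was not tested. All 6 microglia markers passed the filter, and their mean log2 signal per array was 6.33 to 7.51 in controls, 8.89 to 8.95 under 2954K and 8.83 to 8.92 under 7378K. The 7 measured rod markers had means of 13.92 to 14.18, 13.72 to 14.00 and 13.68 to 13.86. The 6 cone markers had means of 11.20 to 11.36, 11.14 to 11.24 and 11.05 to 11.08. The 6 Müller glia markers had means of 11.87 to 12.05, 12.05 to 12.31 and 12.20 to 12.41, and the 6 amacrine markers of 11.28 to 11.41, 11.23 to 11.54 and 11.47 to 11.51. For the Müller glia and amacrine lists every 7378K array was above every control, and for the rod and cone lists every 7378K array was below. Single markers did not all follow their list. Rlbp1 of the Müller glia list was lower under 7378K than in controls, and Pde6h of the cone list was higher. Gnat1 and Sag of the rod list, and Gad1, Slc6a9 and Tfap2a of the amacrine list, overlapped between 7378K and control. So did Opn1sw, Gnat2 and Gngt2 of the cone list, and Glul and Vim of the Müller glia list. In the cone list only Arr3 and Opn1mw were lower on every 7378K array than on every control. Bipolar markers (9.78 to 10.25, 9.90 to 10.59 and 9.85 to 10.06) and ganglion cell markers (10.55 to 10.80, 10.66 to 10.71 and 10.73 to 10.85) overlapped between groups. Lens markers, of which 7 of 11 passed the filter, were high on the third array of each group, with per-array means up to 12.41, 9.78 and 7.42. Without these arrays the difference of Nnat under 7378K was -0.94 in place of -1.52, and the 7 genes ranged from -0.96 (Pdzph1) to -1.43 (Slc25a25) under 2954K and from -0.94 to -2.32 (Glb1l3) under 7378K. Pigment epithelium and melanocyte markers, 9 of 10 above the filter, had per-array means of 7.97 to 10.03, 8.85 to 10.05 and 8.11 to 9.32. Muscle markers, 3 of 8 above the filter, had a mean of 7.16 on control replicate 3 and of 4.27 to 5.04 on the other arrays. No measured erythrocyte marker passed the filter.

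Relatives of the 7 genes, the genes themselves left out, were taken by family or process, and the count of changed genes is read against 1.22% of all genes changed under 2954K and 3.52% under 7378K. In the beta-galactosidase and lysosomal glycosidase list, 0 of 14 genes passed under 2954K (median 0.04 under 7378K and -0.03 under 2954K) and Glb1l2 alone fell under 7378K. Glb1l2, which is the nearest gene before Glb1l3 in RefSeq order, read 11.39, 11.31 and 11.18 in controls and 10.64, 10.86 and 10.68 under 7378K. Its log2 difference was -0.56 (adjusted p = 0.024 in limma), against -0.50 under 2954K (0.079), and the call was lost with either 3′ minus 5′ covariate (-0.37 and -0.33), without the intensity trend, without any 1 of control replicates 1 and 2 or 7378K replicates 1 and 3, and without the third arrays. With its probe sets averaged the difference was -1.11. Glb1, the lysosomal enzyme, was at -0.03 and 0.27 under 2954K and 7378K, and Glb1l at -1.05 and -0.51, none of which passed.

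Among 13 genes of nucleoside transport and adenosine metabolism, 0 passed under 2954K (median 0.07) and 1 fell under 7378K (median 0.13). It was Nt5e, the ecto-5′-nucleotidase that makes adenosine outside cells, at 11.82, 11.80 and 11.87 in controls and 10.82, 11.20 and 11.03 under 7378K. The difference was -0.81 (adjusted p = 0.0015 in limma), beside -0.48 under 2954K (0.065), and it was no longer called with the dap covariate (-0.74) or without the third arrays (-0.80). With the probe sets of Nt5e averaged, the difference was -1.89 and the call was kept. The other equilibrative transporters did not pass in either contrast: Slc29a2 was at -0.08 and 0.13, Slc29a3 at 0.11 and 0.06, and Slc29a4 at 0.07 and 0.19.

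The remaining lists held no gene that passed in either contrast. Of 20 imprinted genes the median was 0.03 under 2954K and -0.06 under 7378K, and Blcap, the nearest gene before Nnat in RefSeq order, was at 0.04 and 0.09. Of 14 mitochondrial carriers and calcium handling genes the medians were -0.00 and 0.04, and the close relatives of Slc25a25 were at 0.29 and 0.66 (Slc25a23) and at 0.17 and -0.32 (Slc25a24). Of 15 other TFIID subunits the medians were -0.03 and -0.01, and Taf4, the paralogue of Taf4b, was at 0.02 and 0.05. In 7378K against 2954K 0 genes of any list passed.

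The 3 nearest protein-coding genes that passed the filter, on each side of each of the 7 genes, gave 42 neighbours. Over all genes 1.22% changed under 2954K and 3.52% under 7378K. Under 2954K 1 rose, Aqp4, the water channel of Müller glia and a neighbour of Taf4b, and 0 fell (median 0.04). Under 7378K Aqp4 and Nfkbie, a neighbour of Slc29a1, rose and Glb1l2 fell (median 0.13). Aqp4 read 11.84, 11.59 and 11.67 in controls, 12.37, 12.33 and 12.10 under 2954K and 12.37, 12.16 and 12.31 under 7378K, with differences of 0.57 (adjusted p = 0.026 in limma) and 0.58 (0.013). Nfkbie, which encodes an inhibitor of NF-kappa-B, had a difference of 1.30 under 7378K (adjusted p = 0.043 in limma) and 1.24 under 2954K (0.1). These calls were unstable. That of Nfkbie was lost in 13 of 20 alternatives, among them both covariates, no filter, no intensity trend, control replicates 2 or 3 or any 7378K replicate left out, and the mean of its probe sets, where the difference was 0.57. Those of Aqp4 were lost in 11 of 21 alternatives under 2954K and 8 of 21 under 7378K, including both covariates, control replicate 2 left out, and the mean of its probe sets (0.43 and 0.23).

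The genes whose log2 signal followed each of the 7 most closely over the 9 arrays were named by Pearson's r, with r after removal of the group means in parentheses. The arrays share the group differences that chose the 7 genes, so these are descriptions. The r that picked the partners also holds the deviations within groups, so the r in parentheses is no separate check. Glb1l3 was followed by Atm at 0.983 (0.86), Thap12 at 0.983 (0.90) and Smim7 at 0.978 (0.88). Slc29a1 was followed by A930003A15Rik at 0.965 (0.88), Asrgl1 at 0.963 (0.87) and Dnajc13 at 0.963 (0.94), and Slc25a25 by Bclaf1 at 0.985 (0.95), Tmem218 at 0.983 (0.95) and Sbds at 0.981 (0.97). The r within groups was 0.95 or above for these partners of Slc25a25, which were picked on the same arrays. Dleu7 was followed by C430042M11Rik at 0.995 (0.98), Rgcc at 0.974 (0.86) and Lrrc57 at 0.974 (0.91), and Taf4b by Zfp383 at 0.984 (0.95), Brsk2 at 0.970 (0.94) and Opn1mw, the middle-wavelength cone opsin, at 0.967 (0.90). Nnat was followed by Rgs9bp, which anchors a photoreceptor signalling regulator, at 0.954 (0.86), Ppp6c at 0.937 (0.86) and Endod1 at 0.936 (0.91). Pdzph1 was followed by Apbb1 at 0.973 (0.73), Traf3ip3 at 0.970 (0.66) and Fam160a1 at 0.970 (0.83), the lowest r within groups of the 7. A high r went with differences of unlike size: Atm lay at 9.20 to 9.32 in controls and 8.89 to 8.94 under 7378K, a narrower span than that of Glb1l3.

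Among the 7 genes themselves, the 21 pairs had a median r of 0.43 once group means were removed, with a range of -0.52 to 0.80 over the 9 arrays. Shared array effects enter these values, and they are descriptions with no test.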

How the data were processed

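The deposited values were log2 signals per probe set, and the submitters' processing notes name MAS5 and affy without a version or a role. A 2% trimmed mean of 500 on the linear scale was found on each of the 9 arrays. Values were used without further scaling. Probe sets were named through the platform annotation. The probe set with the highest mean stood for a gene, and genes below the 40th percentile of probe set means (5.91) were left out, which left 12765. All 9 arrays were fitted with 1 mean per group by limma 3.58.1 in R 4.3.3 (eBayes with an intensity trend), with Benjamini-Hochberg adjustment over all genes and a threshold of 0.05. Slope fits added a 3′ minus 5′ difference as a covariate. The scripts were tested on simulated data, and figures were drawn with matplotlib 3.10.9.

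The 7 genes, the lists of relatives and cell type markers, and the tests were chosen with earlier results of these data known. Named genes were the 7, fixed close relatives, the genes called in each list or among the neighbours, and the 3 genes of highest correlation with each of the 7. Alternatives covered filters, probe set choice, normalization, moderation, covariates, replicate blocks and left-out arrays. Replicates are pools that the labels call biological replicates, and their small number limits the precision. Motifs were sought in the 250 bases before each RefSeq start.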

Additional observations from a re-analysis of the deposited data

How the results depend on the processing

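In every alternative run, each LED minus control difference of the 7 genes stayed below 0. The 7378K minus 2954K difference (leaving out 1 array each: -0.41 to 0.41 for Nnat, -0.77 to 0.12 for Slc25a25 and -0.12 to 0.46 for Taf4b) changed sign for Taf4b with the mean of its probe sets (-0.51), without 2954K replicate 3 (-0.12) and without the third arrays (-0.21). It changed sign for Nnat with the Gapdh and actin covariate (0.03), with dap (0.13), without 2954K replicate 2 (0.14), without 7378K replicate 3 (0.41) and without the third arrays (0.39). It changed sign for Slc25a25 with dap (0.33) and without 2954K replicate 2 (0.12), for Slc29a1 with dap (0.08) and for Pdzph1 with dap (0.01) and without the third arrays (0.00). Gapdh and actin slopes changed sign for Dleu7 after quantile normalization (0.03), with the replicate block (0.03) and without 2954K replicate 2 (0.29), for Nnat without 2954K replicates 1 (0.24) and 2 (0.03), for Pdzph1 without 2954K replicate 1 (0.04) and for Taf4b without 2954K replicate 2 (0.10). Dap slopes changed sign for Pdzph1 without 2954K replicate 1 (0.04) and, without 2954K replicate 2, for Dleu7 (0.20), Nnat (0.09) and Taf4b (0.00). Leaving out 1 array each gave Gapdh and actin slopes of -0.70 (without 2954K replicate 1) to -0.15 (without 2954K replicate 2) for Glb1l3, -1.05 to -0.31 for Slc29a1 (the same arrays), -1.15 to 0.29 for Dleu7, -0.18 to 0.24 for Nnat, -0.17 to 0.04 for Pdzph1 and -1.34 to 0.10 for Taf4b. The dap slopes were -0.65 (without control replicate 2) to -0.13 (without 2954K replicate 2) for Glb1l3, -0.21 to 0.04 for Pdzph1, -0.86 to 0.20 for Dleu7, -0.31 to 0.09 for Nnat and -1.0 to 0.00 for Taf4b. Slopes of Glb1l3 and Taf4b passed the threshold in some alternatives, on dap without 2954K replicate 3 at 0.0052 for Taf4b and without control replicate 3 at 0.029 for Glb1l3. The causes were not tested.

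Counts of called genes for 2954K, 7378K and both LED groups against control were 156, 449 and 441. They became 82, 255 and 245 with a gene's probe sets averaged, 101, 207 and 265 without the intensity trend, 102, 136 and 153 with the Gapdh and actin covariate, and 90, 146 and 164 without the third arrays. With dap the 7378K count was 77 and that of both groups 115. With only the arrays compared, the counts were 68 and 2174. Slopes were called for 918 of 12765 genes on Gapdh and actin and for 927 on dap. With every probe set fitted on its own, slopes were called for 2510 and 2770 of 22657 probe sets. Leaving out 1 array gave 79 (without control replicate 2) to 895 (without 2954K replicate 2) for 2954K, 144 (without 7378K replicate 1) to 1517 (without 2954K replicate 1) for 7378K, 0 to 29 (without 2954K replicate 1) between LED groups, 164 to 1847 for both, 58 (without 2954K replicate 1) to 1334 for Gapdh and actin slopes and 0 (without 2954K replicate 2) to 1475 for dap slopes.

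After group means were removed, same-numbered arrays correlated at 0.06 to 0.33, and 5 of 9 pairs were above 0.1. Arrays of unlike number correlated at -0.27 to 0.09, with 0 of 18 pairs above 0.1. The array with the same number correlated best in 16 of 18 comparisons. Arrays of the same number thus shared some of their deviations, and the source was not tested. With the replicate block the slope counts were 106 and 165, from 918 and 927, and the counts against control 163, 638 and 622, with 0 between LED groups. The Slc25a25 slope on dap was then -0.96 and no longer passed (adjusted p = 0.051 in limma), whereas that on Gapdh and actin, -0.70, did (0.043).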
